A study of Mus musculus with 53 samples.

Results

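Transcripts of 8 complement genes were followed in mouse bone marrow-derived macrophages (BMDMs) during stimulation with IL-4, the cytokine that drives alternative macrophage polarization through the transcription factor STAT6. The genes were C1qa, C1qb, C1qc, C3, Cfb, Cfp, C3ar1 and C5ar1. They were selected by name, with earlier results of these data known. Each matched a single locus among the 23847 loci listed for every sample. In WT cells, C5ar1 fell within the first hours of IL-4, whereas Cfp, the C1q chains and C3ar1 were lower in the 24 h samples. None of the 8 genes passed the test for an IL-4 change in Stat6-/- cells.

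Complement is a set of plasma proteins that mark particles for uptake, and macrophages are themselves a source of several of its components. C1q, built from the A, B and C chains, is the recognition part of the classical pathway and binds antibody complexes and dying cells. C3 is the component on which the pathways converge; factor B (Cfb) supplies the protease of the alternative pathway convertase, and properdin (Cfp) stabilises that convertase. Cleavage of C3 and C5 releases the small peptides C3a and C5a, which act on myeloid cells through the receptors C3ar1 and C5ar1.

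WT cells and cells of mice with a whole-body Stat6 knockout, aged 8 to 12 weeks and on the C57BL/6 background, were grown for 6 days in L929 supernatant as a source of MCSF. Cells given 20 ng/ml IL-4 were collected after 1, 3, 6 and 24 h beside untreated cells of the same times, and untreated cells were also collected at 0 h. The 53 RNA-seq samples fell into 18 groups, with 4 WT samples a group (3 for IL-4 at 24 h, where replicate 1 is not analysed here) and 2 Stat6-/- samples a group. Values are given as FPKM, in which fragment counts are scaled to transcript length and to the depth of the sample.

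Stat6 itself was at 83.0 ± 3.11 FPKM in WT (SD, n = 4) and 21.1 ± 1.11 in Stat6-/- controls at 0 h (SD, n = 2), and the genotypes differed by -1.93 on the log2 scale (SE 0.10, limma adjusted p = 3.37e-17). Relative depth ranged from 0.707 to 1.55 of the median sample. Of 8 macrophage markers, 8 reached 1 FPKM, although Lyz2 was listed at 0 in 7 samples. The summed B cell, erythroid and fibroblast markers stayed below 1 FPKM in every sample. T or NK cell markers summed to 3.31 to 15.6 FPKM in WT controls and 7.06 to 12.2 FPKM in Stat6-/- controls. Of these 5 genes only Cd4 reached 1 FPKM. Mast cell or basophil markers summed to 0.269 to 0.890 FPKM in WT controls and 0.930 to 2.10 FPKM in Stat6-/- controls. Stat6-/- replicate 2 was above replicate 1 in 9 of 9 groups for 7 of the 8 complement genes. How many of all loci shared this order was not counted. Values without replicate 2 are given where it decides a result. In bulk RNA, fewer expressing cells and less RNA per cell cannot be told apart.

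The C1q chains were among the most abundant transcripts of these cells. Averaged over the 53 samples, C1qb was at 2253 FPKM, rank 15 of the 11146 loci that reached 1 FPKM in at least 1 sample. C1qc followed at 1311 FPKM (rank 29) and C1qa at 688 FPKM (rank 65), and this order of the chains held in 53 of 53 samples. C3ar1 (380 FPKM), Cfp (304 FPKM) and C5ar1 (203 FPKM) came next, with single-sample ranges of 207 to 516, 156 to 638 and 83.3 to 308 FPKM that overlapped. C3, at 98.7 FPKM (rank 624), and Cfb, at 81.4 FPKM (rank 787), were lowest, and their order varied, the ratio of C3 to Cfb being 1.29 to 17.8 in WT and 0.557 to 9.50 in Stat6-/- samples. All 8 genes passed the filter on low values.

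On the mm10 build the C1q genes are neighbours on chromosome 4, within 18700 bases. C1qb lies at chr4:136880145-136886177, C1qc at chr4:136889802-136892914 and C1qa at chr4:136895916-136898844, all protein-coding and on the minus strand. C3 (chr17:57203973-57228136) and Cfb (chr17:34856374-34862514) share a chromosome but are not adjacent. Cfp is X-linked (chrX:20925535-20931524), and the receptors C3ar1 (chr6:122847140-122856157) and C5ar1 (chr7:16246743-16259540) lie apart from each other. No listed locus overlapped any of the 8.

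Promoters were available for 6 of the 8 genes from RefSeq (GRCm38.p6), each 250 bases before to 50 after the start site. They were searched on both strands for TTCNNNGAA, the palindromic site that STAT factors bind, and its form with 1 further N between TTC and GAA, which STAT6 prefers, for GAGGAA, the core of sites for the myeloid factor PU.1, and for TGANTCA, the AP-1 motif. Neither STAT motif occurred in any of the 6 windows, against 8.3% (3 N) and 6.95% (4 N) of all 32851 promoters. GAGGAA, present in 28.3% of all promoters, occurred in those of C1qb, C1qc and Cfp, and TGANTCA (7.81% of all) in that of C3ar1 at position -22. The windows of C1qb and C1qc, which moved together, and of Cfp and C5ar1, the genes with the largest IL-4 changes relative to their error, are printed 5′ to 3′ with motif matches in capitals (TTCCTC where GAGGAA lies on the opposite strand).
C1qb (chr4:136886151-136886450, minus strand): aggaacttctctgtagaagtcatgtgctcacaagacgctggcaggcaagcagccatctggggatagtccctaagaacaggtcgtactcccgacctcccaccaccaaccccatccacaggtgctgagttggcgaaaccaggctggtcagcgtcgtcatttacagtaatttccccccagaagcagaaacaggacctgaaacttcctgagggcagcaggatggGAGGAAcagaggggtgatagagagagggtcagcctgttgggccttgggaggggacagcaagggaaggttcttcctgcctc
C1qc (chr4:136892865-136893164, minus strand): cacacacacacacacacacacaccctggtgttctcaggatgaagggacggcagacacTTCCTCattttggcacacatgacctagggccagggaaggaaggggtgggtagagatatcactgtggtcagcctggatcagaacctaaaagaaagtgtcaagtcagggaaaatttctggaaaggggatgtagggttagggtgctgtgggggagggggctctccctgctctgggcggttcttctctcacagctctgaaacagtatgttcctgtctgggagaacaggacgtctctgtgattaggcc
Cfp (chrX:20931506-20931805, minus strand): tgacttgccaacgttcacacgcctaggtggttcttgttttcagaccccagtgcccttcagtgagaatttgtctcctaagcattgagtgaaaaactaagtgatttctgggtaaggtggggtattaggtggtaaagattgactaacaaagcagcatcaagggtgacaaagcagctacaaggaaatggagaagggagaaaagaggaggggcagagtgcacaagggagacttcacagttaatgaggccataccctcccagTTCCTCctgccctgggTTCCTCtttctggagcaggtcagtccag
C5ar1 (chr7:16259289-16259588, minus strand): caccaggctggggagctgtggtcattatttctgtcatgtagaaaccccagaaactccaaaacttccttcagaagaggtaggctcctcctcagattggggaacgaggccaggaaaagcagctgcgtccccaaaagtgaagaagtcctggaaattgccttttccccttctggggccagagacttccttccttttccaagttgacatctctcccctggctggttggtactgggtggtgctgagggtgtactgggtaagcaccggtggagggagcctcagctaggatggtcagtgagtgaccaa
The GAGGAA match began at -30 in C1qb, at -193 in C1qc and at 7 and 23 in Cfp, counted from the start site at 1. The start site used for the C5ar1 window (16259338) lies 202 bases inside the listed locus, which ends at 16259540 as the RefSeq gene does. Of the 250 bases before that site, 202 thus lie within the locus. A match of letters is not a bound site, and regions farther away were not searched.

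The first question was which of these genes responded to IL-4 in WT cells, and when. C5ar1, the receptor for C5a, was the first to fall. In the 4 controls at 3 h it was at 256, 285, 251 and 217 FPKM, and in the 4 IL-4 samples at 108, 116, 97.6 and 83.3 FPKM. The groups were far apart, and each IL-4 sample was below the control of the same replicate number. The IL-4 change (log2) was -1.31 (SE 0.17, limma adjusted p = 3.39e-08).

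The decline of C5ar1 had begun by 1 h. Its IL-4 samples then lay between 141 and 165 FPKM and the controls between 226 and 282 FPKM, without overlap. The IL-4 change (log2) was -0.66 (SE 0.17, limma adjusted p = 0.00476), and the adjusted p was 0.0670 without WT replicate 3. At 6 h the IL-4 samples were at 110, 158, 101 and 108 FPKM and the controls at 244, 308, 257 and 256 FPKM. Replicate 2 was the highest of the 4 samples in both groups. This gave a change of -1.17 (log2, SE 0.17, limma adjusted p = 2.63e-07). By 24 h the distance was smaller, with 121 to 144 FPKM in IL-4 against 215 to 232 FPKM in controls and a change of -0.74 (SE 0.18, limma adjusted p = 0.000639).

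C5ar1 was thus the 1 of 8 genes called, at an adjusted p under 0.05 and a change of at least 2-fold, at 3 h and again at 6 h, where 3.88% and 5.54% of all tested loci were called. At 1 h it was the 1 gene to pass the test (9.39% of all loci passed), and 0 were called (1.49% of all loci). The response of C5ar1 at 24 h minus that at 3 h was 0.57 on the log2 scale (SE 0.24, limma adjusted p = 0.0664). With the replicate number as a block this difference was 0.54 and passed (adjusted p = 0.00640).

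**Figure D1:**
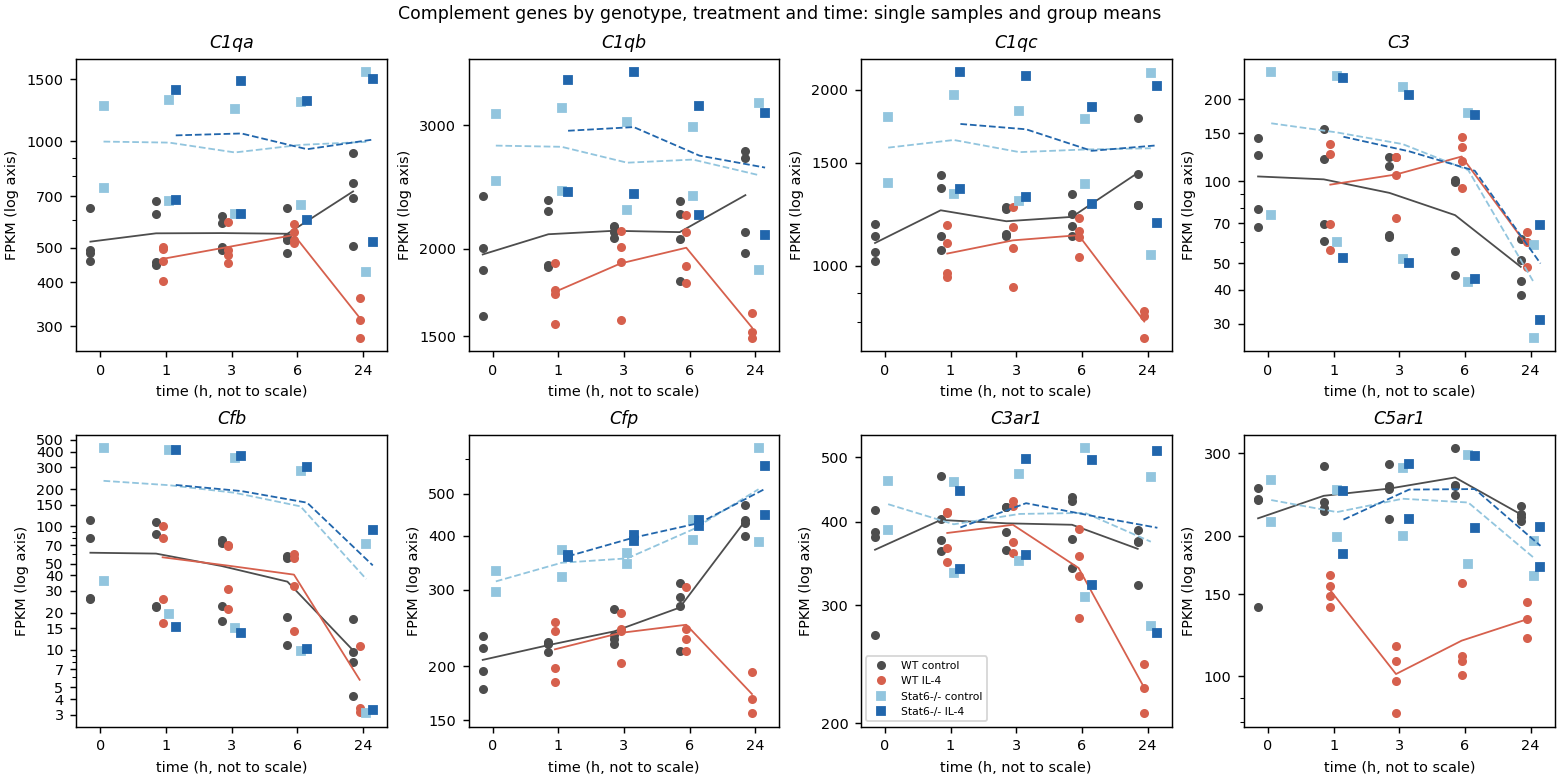
FPKM of each complement gene (y, log axis) over time in hours (x, not to scale), with 1 point per sample and lines through group means. C5ar1 in WT IL-4 samples lay below the controls from 1 h on, while Cfp, the C1q chains and C3ar1 parted from controls at 24 h.

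Cfp, which encodes properdin, showed a different course. Untreated WT cells were at 207 ± 25.5 FPKM at 0 h and 434 ± 29.5 FPKM at 24 h (SD, n = 4 each), a rise of 1.07 on the log2 scale (SE 0.13, limma adjusted p = 1.18e-07). The 24 h IL-4 samples were at 156, 168 and 194 FPKM, against 472, 400, 435 and 427 FPKM in the controls of that time. Every IL-4 sample was under every 24 h control, and their range overlapped that of the 0 h controls (177 to 235 FPKM). The IL-4 change at 24 h was -1.33 (log2, SE 0.14, limma adjusted p = 1.77e-10). At 1, 3 and 6 h the Cfp ranges of IL-4 and control samples overlapped, with log2 changes of -0.04, -0.01 and -0.13 that did not pass. The difference between the 24 h and 3 h responses was itself -1.31 (SE 0.18, limma adjusted p = 4.41e-07), and in this comparison Cfp was the 1 of 8 genes called (7.92% of all loci).

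The C1q chains declined together at 24 h. C1qa was at 361, 313 and 279 FPKM with IL-4 and at 928, 691, 762 and 508 FPKM without. C1qb was at 1492, 1617 and 1522 FPKM with IL-4 and between 1974 and 2757 FPKM without, and C1qc at 753, 836 and 820 FPKM against 1269 to 1792 FPKM. For each chain all IL-4 samples were below all controls. The log2 changes were -1.16 for C1qa (SE 0.35, limma adjusted p = 0.00535), -0.61 for C1qb (SE 0.18, adjusted p = 0.00421) and -0.83 for C1qc (SE 0.20, adjusted p = 0.000647). Without WT replicate 3 the adjusted p was 0.0604 for C1qa and 0.0503 for C1qb, at log2 changes of -1.12 and -0.58.

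The chains did not keep a fixed ratio. C1qb over C1qa was 4.92 ± 0.70 in the 24 h IL-4 samples (SD, n = 3) and 3.38 ± 0.60 in the controls (SD, n = 4), with ranges that met between 4.13 and 4.16. C1qb over C1qc varied less, from 1.54 to 2.02 across the 35 WT samples. Before 24 h the chains differed little from controls: their log2 changes at 1, 3 and 6 h lay between -0.27 and -0.0044, and none passed. For C1qc the 24 h response was lower than the 3 h response by 0.71 on the log2 scale (limma adjusted p = 0.0385), a pass that leaving out any WT replicate ended (adjusted p from 0.0877 to 0.196), as did testing all loci without a filter (0.0732) or median-ratio rescaling (0.0691). For C1qa and C1qb that difference passed only with the replicate block (adjusted p = 6.96e-05 and 0.0236), with quantile normalization or in a fit of the compared groups alone.

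C3ar1, the receptor for C3a, also fell late. It was at 245, 226 and 207 FPKM with IL-4 at 24 h and at 389, 374, 373 and 322 FPKM in controls, without overlap. The IL-4 change (log2) was -0.69 (SE 0.19, limma adjusted p = 0.00248). At 3 h both groups had spanned nearly the same range, 360 to 429 and 363 to 422 FPKM. The 24 h minus the 3 h response was -0.68 on the log2 scale (SE 0.26, limma adjusted p = 0.0380). Leaving out any WT replicate ended this pass (adjusted p from 0.115 to 0.161). So did testing all loci without a filter (0.0603) or median-ratio rescaling (0.0774). At 6 h C3ar1 was lower with IL-4 in 4 of 4 numbered pairs, a log2 change of -0.22 (limma adjusted p = 0.343) that passed only with the replicate block (adjusted p = 0.0473).

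At 24 h in WT, 6 of the 8 genes had therefore passed the test and all of these were lower with IL-4, where 55% of all loci passed and 31.6% passed and were lower. Called were 2 of 8, C1qa and Cfp, both lower, against 8.5% of all loci called and 4.58% called lower. The median log2 change was -0.73 over the 8 genes and -0.07 over all tested loci.

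C3 and Cfb behaved unlike the others, with a wide spread between replicate numbers. At 6 h C3 was at 146, 134, 119 and 94.2 FPKM with IL-4 and at 99.2, 101, 55.3 and 45.2 FPKM in the controls, so that the groups overlapped. Within each replicate number, though, the IL-4 sample was the higher, by ratios of 1.47, 1.33, 2.15 and 2.08. The log2 change of 0.77 did not pass in the fit of group means (SE 0.53, limma adjusted p = 0.256) and passed with the replicate block (SE 0.18, adjusted p = 0.000464). At 24 h C3 was at 58.0 ± 8.62 FPKM with IL-4 (SD, n = 3) and 48.5 ± 10.2 FPKM without (SD, n = 4), and no difference was detectable.

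Cfb showed no detectable IL-4 change at any time, with or without the block. Its 24 h values were 10.7, 3.16 and 3.38 FPKM with IL-4 and 17.9, 9.53, 7.93 and 4.27 FPKM without, ranges that overlap. The 95% interval of the log2 change ran from -3.44 to 2.0 in the fit of group means. With the replicate block it ran from -0.89 to 0.06. Both leave a change of either sign possible.

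**Figure D2:**
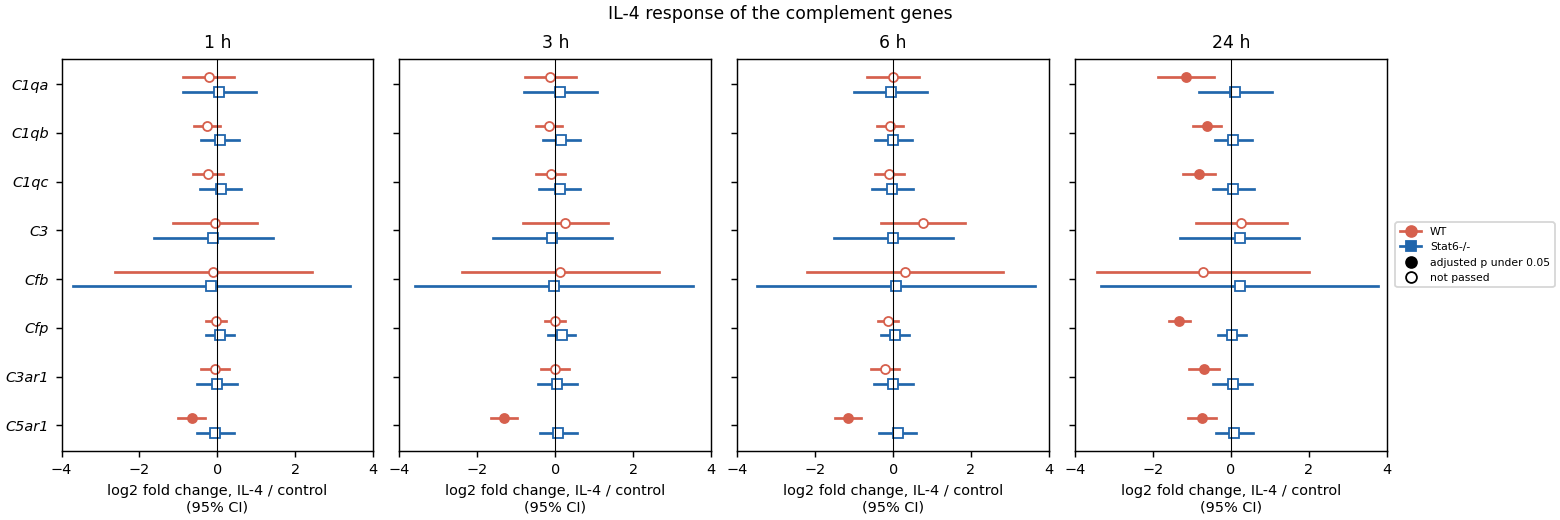
Log2 fold change of IL-4 over the time-matched control (x, log2 of FPKM + 1, with 95% confidence intervals) for each gene in WT (circles) and Stat6-/- (squares) at each time. Filled symbols passed at an adjusted p under 0.05: C5ar1 at every time and 5 further genes at 24 h, in WT only.

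The second question was whether these changes were seen without STAT6. In Stat6-/- cells the log2 changes of the 8 genes over the 4 times lay between -0.16 and 0.22, and by limma 0 passed at any time, with an unadjusted p under 0.05 for 0 of them. Over all loci 0 passed, that is 0%, at each of the 4 times, with 37 to 131 loci at an unadjusted p under 0.05. With the replicate block 0 of the 8 passed too, where 0.0179%, 0.0359%, 0.0359% and 0.00897% of all loci passed at 1, 3, 6 and 24 h. At 3 h C5ar1 was at 217 and 285 FPKM with IL-4 and 200 and 280 FPKM without, a log2 change of 0.07 (95% interval -0.40 to 0.55). Cfp at 24 h was at 447 and 579 FPKM with IL-4 and 387 and 638 FPKM without, a log2 change of 0.04 (95% interval -0.32 to 0.39). For C3 and Cfb the intervals were wide, as in WT. At 24 h they ran from -1.30 to 1.75 and from -3.34 to 3.78 in the fit of group means. With the replicate block they ran from -0.30 to 0.74 and from -0.40 to 0.84.

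The difference between the genotypes' responses was then tested. For C5ar1 it was -1.38 on the log2 scale at 3 h (SE 0.29, limma adjusted p = 0.000565) and -1.29 at 6 h (SE 0.29, adjusted p = 0.00102), where 3.48% and 4.41% of all loci were called. For Cfp it was -1.36 at 24 h (SE 0.22, adjusted p = 1.30e-05). These 3 differences were called under each alternative tried.

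Other differences were less firm. At 24 h Cfp was the 1 of 8 called (6.85% of all loci), while C1qc at -0.89 (adjusted p = 0.0422) and C5ar1 at -0.83 (adjusted p = 0.0332) passed, as did 27% of all loci. Both lost the pass in several alternatives, with adjusted p up to 0.195 and 0.112. C1qa, C1qb and C3ar1 differed by -1.27, -0.67 and -0.73 with limma adjusted p of 0.0979, 0.0874 and 0.0772. With the replicate block these 3 passed (adjusted p = 5.96e-05, 0.00549 and 0.000545), as did 45% of all loci. At 1 h the difference for C5ar1 was -0.60 (adjusted p = 0.449, and 0.0454 with the block), and 0 of the 8 genes were called where 1.25% of all loci were.

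Levels in untreated cells were then compared between the genotypes. Over the 5 control times Cfp was higher in Stat6-/- by 0.52 on the log2 scale (SE 0.07, limma adjusted p = 5.60e-07), and without replicate 1 or 2 of Stat6-/- the difference was 0.53 or 0.51. This fit counts the 5 times of a replicate number as separate samples, although same-numbered samples deviated together. With 1 mean per replicate number, 4 in WT and 2 in Stat6-/-, the difference for Cfp was the same and did not pass (limma adjusted p = 0.0882, unadjusted p = 0.000366), and 0 of the 8 genes passed, where 0.0179% of all loci did. Its 0 h values were 332 and 296 FPKM in Stat6-/- and 177 to 235 FPKM in WT, without overlap. C1qa, C1qb and C1qc were higher by 0.67, 0.33 and 0.34 (adjusted p = 0.00526, 0.00807 and 0.0122). The chains' differences rested on Stat6-/- replicate 2, since without it they were 0.12, 0.10 and 0.06 (adjusted p = 0.451, 0.399 and 0.601). C1qc also did not pass without WT replicate 3 or 4 (adjusted p = 0.0756 and 0.0668). In the fit of single samples 4 of 8 genes passed, all higher in Stat6-/-, beside 21.4% of all loci passing and 8.03% passing higher, and 0 were called (0.287% of all loci). This count and its direction also depended on which Stat6-/- replicate was kept.

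C3, C3ar1, C5ar1 and Cfb did not pass with both Stat6-/- replicates, at 0.23, 0.05, -0.12 and 0.98. For all 4 the sign depended on the replicate kept. Without replicate 1 the differences were 1.13 for C3 (adjusted p = 0.000158), 0.31 for C3ar1 (0.00207), 0.10 for C5ar1 (0.451) and 3.10 for Cfb (5.67e-06). Without replicate 2 they were -0.66 for C3 (adjusted p = 0.0276), -0.21 for C3ar1 (0.0479), -0.33 for C5ar1 (0.0132) and -1.15 for Cfb (0.0760). At 0 h alone, Cfp was the 1 gene to pass, at 0.61 (limma adjusted p = 0.0278, where 2.18% of all loci passed). Without Stat6-/- replicate 1 or 2 this difference was 0.52 or 0.69, and in neither case did it pass. It also did not pass without WT replicate 2 or 3 (limma adjusted p = 0.117 and 0.145), nor in a fit of the compared groups alone (0.235). C1qa, C1qb and C1qc differed by 0.90, 0.52 and 0.53 at 0 h, which did not pass. Without Stat6-/- replicate 1 these differences were 1.29, 0.68 and 0.72, and without replicate 2 they were 0.51, 0.36 and 0.35. At 0 h 0 of the 8 were called, as were 0.35% of all loci.

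Markers of neutrophils and their precursors moved with genotype too. Of 8 listed, 7 were found, and none of the 7 was at 0 in any sample. Their summed level was 314 to 631 FPKM in WT controls and 597 to 1088 FPKM in Stat6-/- controls. It was 646 to 1088 FPKM over the 9 samples of Stat6-/- replicate 1 and 597 to 790 FPKM over those of replicate 2. S100a9 and S100a8 had the highest medians of the 7, at 215 and 190 FPKM over all samples. The 6 dendritic cell markers, of which Ccr7 was the most abundant by its median and none was at 0, summed to 0.812 to 5.10 FPKM in WT controls and 2.35 to 7.72 FPKM in Stat6-/- controls. Here replicate 2 was the higher, at 4.10 to 8.78 FPKM against 2.35 to 4.78 FPKM over the 9 samples of each. The sum of the 8 macrophage markers was 14398 to 17758 FPKM in replicate 2 and 18582 to 23637 FPKM in replicate 1. That sum was mostly Lyz2, with a median of 16526 FPKM over all samples, against 1243 FPKM for Cd68, the next highest. The part of these cells in the genotype differences was not tested.

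**Figure D3:**
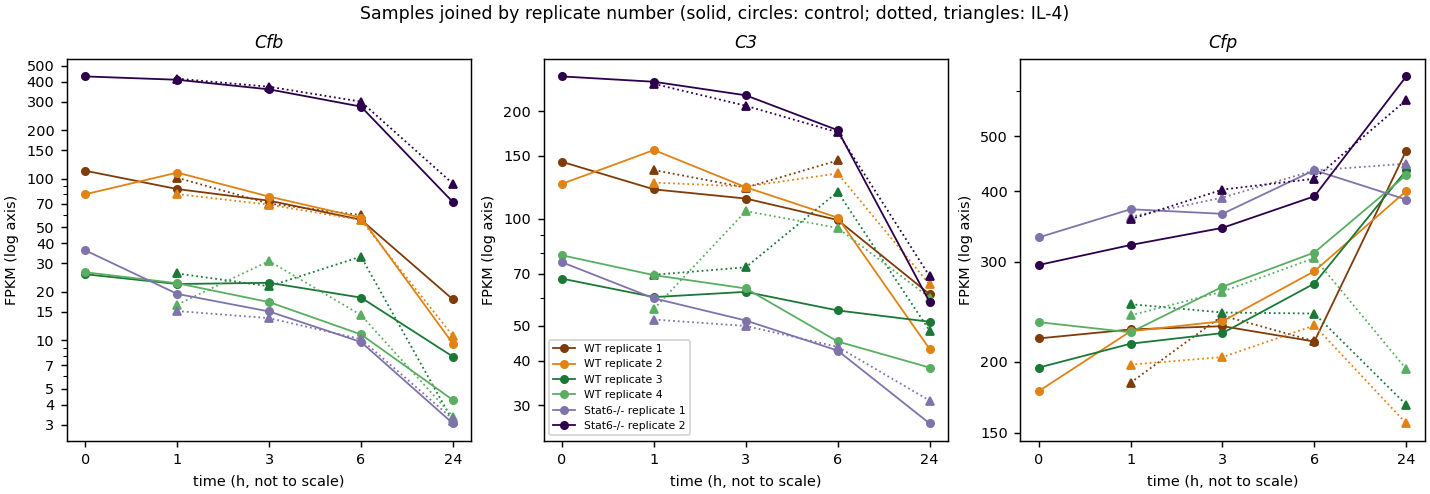
FPKM of Cfb, C3 and Cfp (y, log axis) over time in hours (x, not to scale), with samples of one replicate number joined (solid, control; dotted, IL-4). Cfb was spread widely by replicate number, Cfb and C3 were lower at 24 h than at 0 h in the controls of each number, and Cfp was higher at 24 h than at 0 h in the controls of each number.

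The spread between replicate numbers was largest for Cfb. In Stat6-/- cells replicate 2 exceeded replicate 1 by 12.0- to 29.6-fold in the 9 groups: at 0 h it was at 431 FPKM and replicate 1 at 36.0 FPKM. In WT, replicates 1 and 2 were both above replicates 3 and 4 in 8 of the 8 groups that hold all 4 for Cfb, and in 7 of 8 for C3 and C3ar1. Replicate number accounted for 40.4% of the variance of Cfb and 38.3% of that of C3 in WT, beside a median of 7.44% over all tested loci. The same share was 84.7% and 68.9% in Stat6-/- cells, with a median of 29.1%. C1qa, at 91.3%, had the highest share of the 8 genes in Stat6-/- cells. For Cfp the share was 6.68% in WT and 0.966% in Stat6-/- cells.

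Time in culture without IL-4 moved several of these genes. Cfp was the 1 of 8 called between 0 and 24 h in WT (1.13% of all loci). Cfb went from 112, 80.3, 25.7 and 26.4 FPKM at 0 h to 17.9, 9.53, 7.93 and 4.27 FPKM at 24 h, lower in 4 of 4 replicate numbers. C3 went from 144, 125, 67.9 and 78.9 FPKM to 61.4, 43.1, 51.4 and 38.2 FPKM. The log2 changes of -2.37 and -1.04 did not pass against the spread within groups (limma adjusted p = 0.190 and 0.178), and both were called with the replicate block (adjusted p = 1.02e-10 and 2.19e-05), where 1.93% of all loci were called. The C1q chains were higher at 24 h by 0.45, 0.28 and 0.39, which did not pass against the spread within groups. They passed with the block (adjusted p = 0.00586, 0.0365 and 0.00269 for C1qa, C1qb and C1qc), as did 37.1% of all loci. C1qc also passed without the block under quantile normalization, at 0.48 (limma adjusted p = 0.0126).

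In Stat6-/- controls Cfb, C3 and Cfp had log2 differences of the same signs between 0 and 24 h, at -2.88, -1.77 and 0.66, with limma adjusted p of 0.444, 0.260 and 0.0642. With the block Cfb and C3 were called (adjusted p = 3.83e-08 and 4.87e-06; 1.26% of all loci) and Cfp passed (0.00276). The change of Cfp rested on replicate 2, at 0.22 without it (adjusted p = 0.698) and 1.10 without replicate 1 (adjusted p = 0.00195). In the fit without the block, with both Stat6-/- replicates kept, 0 of 8 were called (0.161% of all loci). At 1, 3 and 6 h against 0 h, 0 of the 8 genes passed in the WT controls without the block, where 2%, 0.144% and 0.135% of all loci did. With it, Cfp was higher by 0.39 and Cfb lower, at -0.78, at 6 h (adjusted p = 0.0272 and 0.0260; 5.21% of all loci passed).

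The wider complement pathway was examined through a list of 55 genes, 54 of them found and 25 tested, the 8 above included. Of the other 17, 4 were called higher with IL-4 at 24 h in WT (3.91% of all loci were). Itgax, a chain of complement receptor 4, went from 9.32 ± 5.01 to 240 ± 42.1 FPKM (log2 change 4.64, limma adjusted p = 1.20e-08), and Itgb2, its partner chain, from 399 ± 33.9 to 851 ± 73.2 FPKM (1.09). C1qbp (1.13) and Calr (1.08), listed as binding partners of C1q and with other roles in mitochondria and the endoplasmic reticulum, also rose.

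By role, 3 of 3 C1q chains, 2 of 2 tested lectin pathway genes and 2 of 3 membrane regulators passed lower at 24 h, beside the 31.6% of all loci that did. Of the 4 classical pathway proteases tested, 0 passed. Among 9 receptors 4 passed higher and 3 lower. The differing responses of WT and Stat6-/- cells were called for Itgax, Itgb2, C1qbp and Calr at 24 h. The receptor Itgam, the partner of Itgb2 in complement receptor 3, was at a log2 change of -0.21 that did not pass (adjusted p = 0.422).

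Early on, Cd93, a receptor once proposed to bind C1q, accompanied C5ar1. It was at 89.3 ± 9.22 FPKM without and 38.8 ± 5.37 FPKM with IL-4 at 3 h, and at 91.7 ± 12.2 and 25.4 ± 2.95 FPKM at 6 h (SD, n = 4 each). The log2 changes were -1.19 and -1.81 (limma adjusted p = 6.46e-12 and 2.32e-17). C5ar2, the second C5a receptor, was far less abundant, at 6.36 ± 0.443 FPKM in 3 h controls, and its log2 changes of -0.87, -0.49 and -0.43 at 1, 3 and 6 h passed without reaching 2-fold on the log2(FPKM + 1) scale. At 1 h its mean was 2.35 FPKM with IL-4 and 5.14 FPKM without. Itgax had already risen at 6 h (1.69, adjusted p = 0.00889). Cfd, the protease that activates factor B, was listed at 0 in 50 of 53 samples, and Hc, the gene of C5, in 48.

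**Figure D4:**
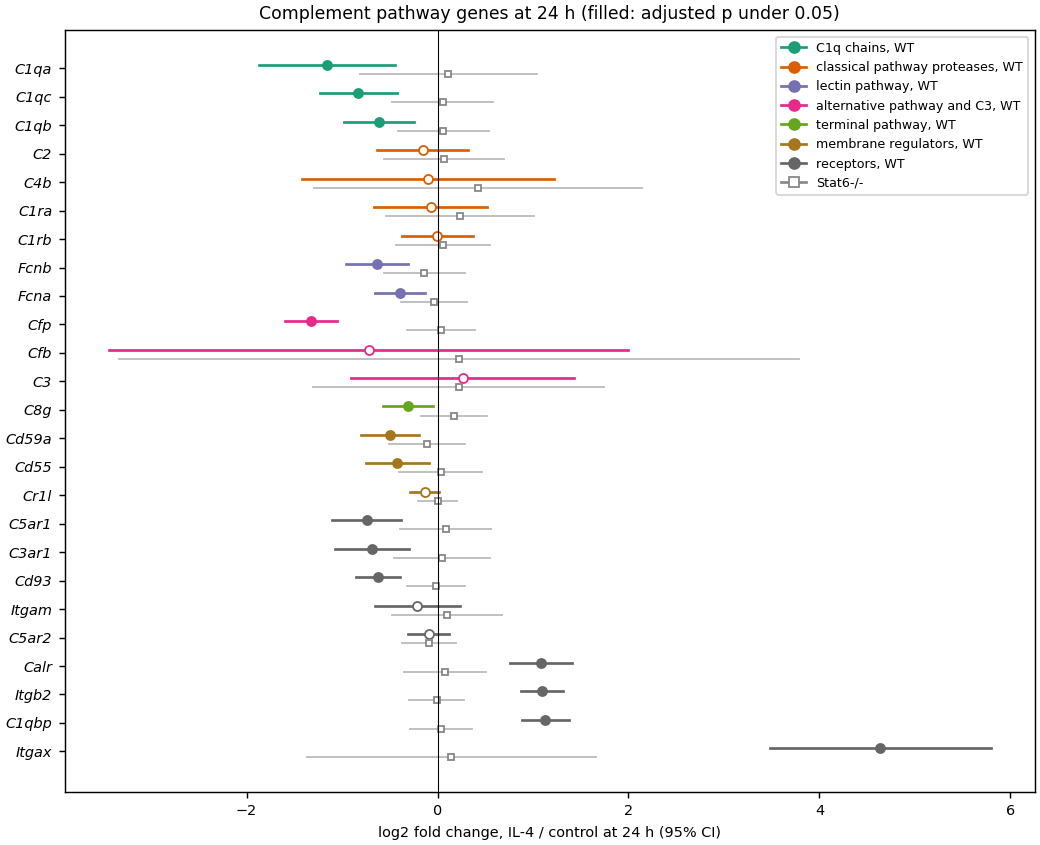
Log2 fold change of IL-4 over control at 24 h (x, with 95% confidence intervals) for the 25 tested complement genes of the list, coloured by role in WT and grey in Stat6-/-. In WT 12 genes passed lower and 4 higher (filled), where 55% of all loci passed, and in Stat6-/- 0 passed.

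Finally, the loci whose 18 group means were most like those of each gene were listed. Each C1q chain was closest to the other chains (Pearson r from 0.986 to 0.990 over 18 groups) and then to Lgmn, a lysosomal protease (0.970 to 0.976). Cfp was closest to Pltp (0.974), Nxpe5 and Slc13a3, and C3ar1 to Milr1 (0.968), Porcn and Cd37. C5ar1 was closest to Trim25 (0.941), Klf6 and Mapk7. C3 went with Psmb8 (0.944), Nt5c and Psme1, and Cfb with Ly6i (0.986), Tmem209 and Slfn4. The groups share replicate numbers, so these values are descriptions.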

How the data were processed

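Polyadenylated RNA was sequenced with an unstranded kit. Per the submitters' processing notes, reads were mapped to mm10 with TopHat2 2.0.7 and quantified with Cufflinks 2.0.2, and the authors deposited 1 table of FPKM values per sample. No read counts are in these tables, so the absolute depth is unknown and no counting intervals are given.

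The tables were joined by locus (Python 3.11.15, pandas 2.3.3). Loci that never reached 1 FPKM were left out, and the other 11146 were tested on log2(FPKM + 1), a scale that understates changes of low genes. All 53 samples entered 1 limma 3.58.1 fit (R 4.3.3; lmFit, contrasts.fit, eBayes with trend) with a mean for each of 18 groups leaving 35 residual degrees of freedom. All tests are two-sided, with Benjamini-Hochberg adjustment over all tested loci within a contrast. A gene passed at an adjusted p under 0.05 and was called if it also changed by at least 2-fold. The fit was tested on simulated data in which each sample had independent noise. No replicate effect was simulated, so that check cannot say how the p-values hold where same-numbered samples deviate together.

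Named are the 8 members, Stat6, other genes of the pathway list called in a WT IL-4 contrast, and the 3 loci most like each member. C5ar2, Itgam, Cfd and Hc were named after their values were seen. The pathway list is not complete, and 1 result is not reported here. Members and lists were chosen with earlier results of these data known.

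Groups of a genotype share replicate numbers. The study describes its WT data as 4 individual animals, but the labels do not tie a number to an animal. Between IL-4 and control, same-numbered samples deviated together across loci in 13 of 15 WT pairs (r over 0.1, range 0.0265 to 0.561). In Stat6-/- cells r was 0.791 to 0.900, with 1 separate value at each time. Both Stat6-/- replicates of a group deviate from its mean by mirrored amounts, so their r is the same by construction. A replicate block was therefore an alternative fit, and its value is printed where it changes a call. Numbers are nested in genotype, so for untreated genotypes a fit on 1 mean of the 5 control times per replicate number (4 residual degrees of freedom), chosen after seeing the data, took its place. Where a number does not mark an animal, p-values measure the spread between samples only.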

Additional observations from a re-analysis of the deposited data

Results flagged for a closer look

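In 2 of 64 groups of 4 samples, 1 sample lay far from the other 3 by Dixon's criterion, where chance gives about 3.2. Both concerned C5ar1. WT replicate 1 at 0 h was at 140.5 FPKM, with the others between 238.6 and 252.4 FPKM, and WT replicate 2 with IL-4 at 6 h was at 158.1 FPKM, with the others between 100.6 and 110.3 FPKM.

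WT and Stat6-/- cells responded differently to IL-4, in the test of the difference itself, for C5ar1 at 3 h (-1.38, log2) and 6 h (-1.29) and for Cfp at 24 h (-1.36), by limma with adjusted p of 0.000565, 0.00102 and 1.30e-05. In each case the WT IL-4 samples were all below the WT controls.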

How the results depend on the processing

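No value changed sign and was called under any alternative. For Stat6-/- against WT over 5 control times, C3 (-0.66) and C3ar1 (-0.21) passed with the opposite sign without Stat6-/- replicate 2. In the fit on means per replicate number 0 of 8 genes passed. Of the single log2 changes, 1809 kept their side of the threshold, 21 became called and 2 ceased to be called. Of the counts of called genes, 215 stayed within 1.5 times and 14 did not. C1qa in WT at 24 h ceased to be called without WT replicate 3 (adjusted p = 0.0604) and by analysis of variance with Tukey's adjustment (0.183), where C1qb (0.0970) and C3ar1 (0.0733) did not pass either.

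Genes called in WT at 24 h numbered 2, 1 with Tukey's adjustment and 1 to 2 when a replicate was left out. For the genotypes' difference in response at 24 h the count was 1, with 2 under quantile normalization, 2 with the replicate block and 1 to 3 when a replicate was left out. For Stat6-/- against WT it was 0, with 0 to 1 (0 h) and 0 to 3 (5 control times) when a replicate was left out. For 24 h against 0 h controls it was 1 in WT, 3 with the replicate block and 3 in a fit of the compared groups alone, and 0 in Stat6-/-, 2 with the block and 0 to 2 when a replicate was left out. For the 24 h minus the 3 h response it was 1, with 3 under quantile normalization and 2 in the compared groups alone. The cause of these shifts was not tested, except that leaving out samples and fitting fewer groups uses fewer samples by construction. The shifts were not compared with those in the share of all loci called. The block changed no call other than those printed with it. Tukey's adjustment covered 16 groups and gave no value for 0 h contrasts or for differences between responses. Leaving out 1 Stat6-/- replicate leaves 1 sample a group, which is assumed to vary like the other groups. With 2 Stat6-/- samples a group, changes of C3 and Cfb are poorly bounded without the replicate block, and the absolute depth is unknown.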
